A study of Mus musculus with 6 samples.

Results

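The genes described here carry long-chain fatty acids into the absorptive cells of the gut, hold them in the cytosol and couple them to coenzyme A. They are 8 of the 21397 genes of the deposited table and were chosen by symbol, with earlier results of these data known. Cd36, Slc27a2 and Slc27a4 were taken for uptake, Fabp1 and Fabp2 for binding, and Acsl1, Acsl3 and Acsl5 for activation. RNA was sequenced from small intestinal organoids of Fpr2f/f mice, grown for 5 days with MMK-1 or with vehicle. The study's results and figure legend name them ileal organoids, its methods small intestinal organoids. Organoids are crypts cultured in gel as closed epithelial buds, and MMK-1 is a synthetic peptide agonist of the G protein-coupled receptor FPR2. The Control group had 0.1% DMSO, the vehicle. The MMK-1 group had 1 μmol/L MMK-1, and the study's methods give DMSO in equal concentration for both groups, although the treatment label of the MMK-1 libraries reads 1 mM and names no DMSO. Both groups carried the same floxed alleles, the labels name no Cre, and each sample held organoids from 3 mice. There were 3 libraries in each group. The labels do not say whether the libraries of a group came from separate cultures or animals, so the p-values below measure only the spread between these samples, which may be technical.

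In the absorptive enterocyte, fatty acids released by lipases in the gut lumen cross the brush border with the help of membrane proteins such as CD36 and the fatty acid transport proteins of the SLC27 family. Inside the cell the small fatty acid-binding proteins keep them soluble, and long-chain acyl-CoA synthetases turn them into acyl-CoA. Acyl-CoA is the substrate for triglyceride, phospholipid and cholesteryl ester synthesis, for oxidation and for the lipids packed into chylomicrons.

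The totals by which the FPKM had been divided, recovered from the FPKM values themselves, were 35512739 to 37537463 fragments per library. Of these, 99.7% lay on listed genes, which is not a measured mapping rate. Sequencing depth was not available. MMK-1 replicate 3 stood apart from the other MMK-1 libraries: a chi-square over genes, divided by its degrees of freedom so that pure counting noise gives about 1, was 36.6 and 31.3 against them, 3.57 between those libraries and at most 4.97 among Control libraries. In the marker lists a gene was called where its limma adjusted p was 0.05 or less, and values in brackets are log2 fold changes of FPKM + 1 with MMK-1 against Control. By that rule 48.5% of all genes tested were called higher and 24.7% lower. Upper-quartile scaling, which divides each library by its 75th percentile, gave 34.7% and 37.1%. The list counts here and below are to be read beside these shares. Of 9 epithelial markers, 5 were called lower and 3 higher, or 6 and 2 after upper-quartile scaling. Their summed level was 6245 to 6288 FPKM (fragments divided by gene length and library total) in Control and 4032 to 4318 FPKM in MMK-1, with log2 fold changes from -1.52 for Krt20 to 0.44 for Krt18, or 0.28 after scaling. Epcam, named after its values were seen, averaged 392 FPKM in Control and 391 FPKM in MMK-1. It was not called as deposited and was called lower after scaling (-0.16). The enterocyte markers were lower in 15 of the 15 genes tested of 16 listed, and their summed level was 6432 to 6485 FPKM in the Control libraries and 2947 to 3034 FPKM in the MMK-1 libraries, with the largest fall for the peptide transporter Slc15a1 (-3.44). The marker that was not tested, Ada, went the other way, with 41 to 59 fragments per Control library and 175 to 180 per MMK-1 library. Stem and Paneth cells sit at the crypt base, where new epithelial cells arise. The summed level of 6 stem cell markers, of which all 6 were higher, was 66.0 to 67.7 FPKM in Control and 381 to 409 FPKM in MMK-1, led by Olfm4 (5.02). All 6 Paneth cell markers were higher, led by Itln1 (2.54), with sums of 392 to 434 and 1275 to 1403 FPKM. Of 8 enteroendocrine markers 6 were called higher, or 4 after scaling, led by Cck (0.99), with sums of 310 to 327 and 443 to 454 FPKM. Goblet cells secrete mucus, and their markers moved both ways. Of 7 goblet cell markers 5 were called higher and 2 lower, or 2 and 2 after scaling, from Zg16 (-1.63) to Tff3 (0.38, or 0.22 after scaling), with sums of 1836 to 1982 and 1977 to 2158 FPKM. The regional markers tell segments of the small intestine apart. All 5 distal small intestine markers were lower, among them Fabp6 (-1.66), which averaged under 1 FPKM in MMK-1 and so passed the filter through Control, with sums of 116 to 120 and 59.3 to 62.9 FPKM. Of 5 proximal markers 3 were tested, with 1 lower and 2 higher, or 1 and 1 after scaling, from Lct (-2.37) to Onecut2 (0.60), with sums of 193 to 196 and 78.5 to 84.9 FPKM. Cyp8b1 of that list was at 0 in all libraries. None of 6 tuft cell markers averaged the 1 FPKM needed for the test, and of 9 fibroblast and muscle markers, with sums of 4.75 to 5.19 and 3.39 to 4.94 FPKM, Vim alone was tested. Its groups overlapped, and its call (-0.25, limma adjusted p = 0.0491, or -0.38 after scaling) was lost without any 1 library other than MMK-1 replicate 3, with -0.15 without MMK-1 replicate 2. In bulk RNA, fewer cells of a type and less RNA per cell cannot be told apart, and the part of these shifts in the results below was not tested.

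Most of the fatty acid handling genes fell with MMK-1. Fabp2 and Cd36 fell the most, Acsl5 and Slc27a2 came close to a halving of their level, Slc27a4 and Acsl1 fell by less, Acsl3 rose, and Fabp1 was called slightly higher from the FPKM as deposited, a call that was lost after upper-quartile scaling. limma was fitted to log2(FPKM + 1) of the 10551 genes that averaged 1 FPKM or more, and a gene was called where its p, adjusted by Benjamini-Hochberg over all of them, was 0.05 or less. Of the 8 genes, 6 were called lower, against a background of 24.7% of all genes tested, and 2 were called higher, against 48.5%. As the genes were chosen with earlier results of these data known, this contrast is a description only. Cd36 passed the filter on low values through its Control libraries alone, so that its lower level was in part fixed by the filter, and 5 of the other 7 genes were called lower. With a fold change of 2 or more and an unadjusted p of 0.05 or less, Fabp2 was lower, the only one of those 7, where 3.65% of all genes tested were. For none of the 8 genes did the groups overlap, which held for 76.8% of all genes tested, and for each gene an exact two-sided permutation test gave p = 0.1, the smallest that 3 against 3 libraries allow. The median log2 fold change was -0.70 over these genes, -0.56 without Cd36 and 0.13 over all genes tested. Upper-quartile scaling moved the median of all genes to -0.0047 and the whole-table calls from 48.5% higher and 24.7% lower to 34.7% higher and 37.1% lower, while 6 of the 8 genes were still called lower and only Acsl3 higher. Relative to the median of all genes, the changes ran from -2.13 for Fabp2 to 0.74 for Acsl3. Without MMK-1 replicate 3 all 8 genes were still called, in the same directions.

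**Figure D1:**
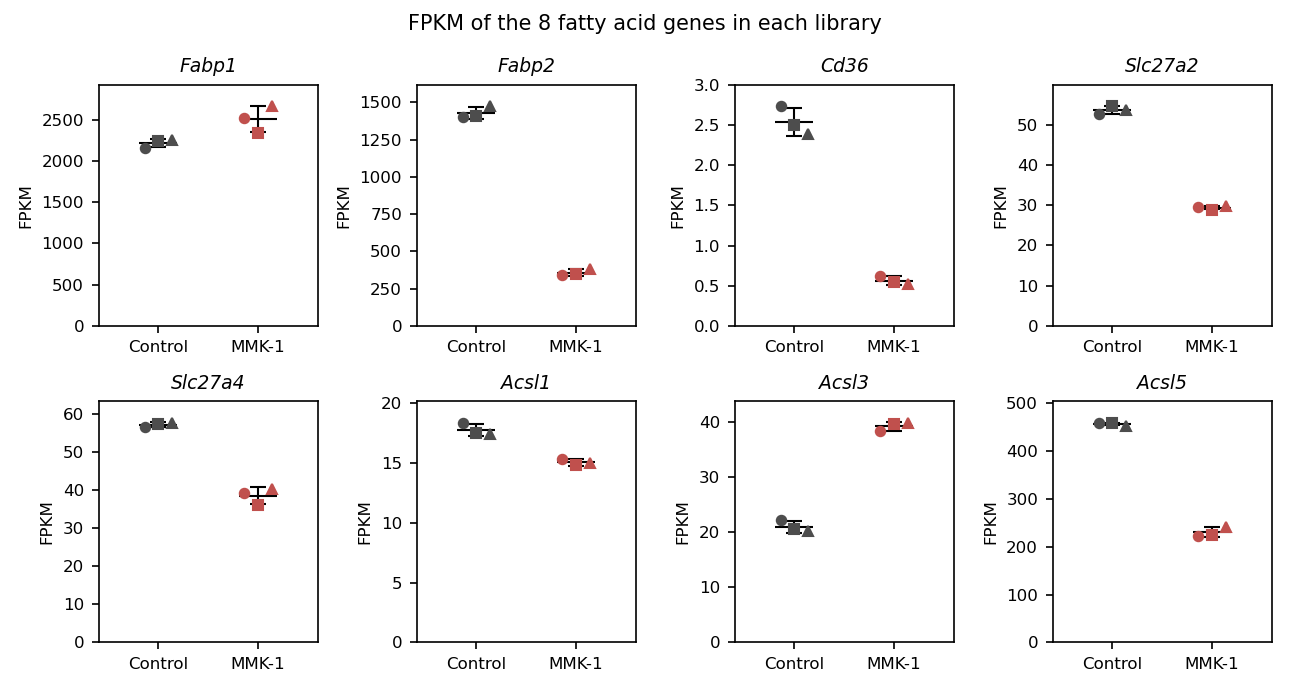
FPKM of the 8 genes in each Control (grey) and MMK-1 (red) library, with circles, squares and triangles for replicates 1, 2 and 3 and black bars for the mean and SD of 3 libraries; each axis starts at 0. In 6 panels the MMK-1 libraries lie below all Control libraries, and in those of Fabp1 and Acsl3 they lie above.

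The 3 uptake genes were lower with MMK-1, Cd36 in part through the filter on low values, as given above. Cd36, a scavenger receptor of the plasma membrane that binds long-chain fatty acids and lipoproteins (NCBI gene 12491, chr5:17781690-17888959 on mm10), was at 2.73, 2.50 and 2.39 FPKM in the Control libraries and at 0.625, 0.542 and 0.524 FPKM in the MMK-1 libraries. These values rest on 362 to 415 fragments per Control library and 79 to 90 per MMK-1 library, and every Control library lay above every MMK-1 library. The mean level was 4.51-fold lower with MMK-1. On the tested scale, where the added 1 FPKM shrinks the change of so low a gene, the log2 fold change was -1.18 (SE 0.0642, limma adjusted p = 6.8e-07). Without the added 1 FPKM the log2 ratio was -2.17, and limma-voom on the fragments also gave -2.17. All MMK-1 libraries lay under 1 FPKM. In control organoids it ranked 8717th by mean FPKM among the genes of the table, far under the other 7 genes.

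Cd36 is also made by cells outside the epithelium. Of 10 endothelial and adipocyte markers, 6 are in the table and 0 reached the filter. Their summed level was 0.0697 to 0.200 FPKM in Control and 0.0885 to 0.238 FPKM in MMK-1, with the endothelial receptor Kdr and the adipocyte binding protein Fabp4 at 0 in all libraries. Of 10 macrophage and leukocyte markers 9 are in the table, and their summed level was 5.41 to 6.19 FPKM in Control and 1.81 to 2.92 FPKM in MMK-1. That sum came mostly from Cd68 and Itgam, the 2 markers of the list that were tested and both called lower. Itgam averaged under 1 FPKM in MMK-1, so its lower level was in part fixed by the filter. Itgam, Ptprc, Adgre1 and Csf1r were named after their values were seen. The leukocyte-defining Ptprc had at most 3 fragments in any library, and Adgre1, the F4/80 antigen, was at 0 in Control. Csf1r, the receptor for a macrophage growth factor, was counted with 20, 23 and 23 fragments in Control but 0, 1 and 2 with MMK-1, the same direction as Cd36. The part of such cells in the change of Cd36 was not tested.

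Slc27a2, a fatty acid transport protein with very-long-chain acyl-CoA synthetase activity (NCBI gene 26458, chr2:126553024-126588243), was at 52.7, 54.5 and 53.7 FPKM in Control and at 29.5, 28.9 and 29.7 FPKM in MMK-1. Libraries of a group lay close together and the groups stood far apart. The level was 1.83-fold lower with MMK-1, a log2 fold change of -0.85 (SE 0.0377, limma adjusted p = 2.0e-07). Slc27a4, the main fatty acid transport protein of the small intestine (NCBI gene 26569, chr2:29802634-29817522), was at 56.5, 57.3 and 57.6 FPKM in Control and at 39.3, 36.0 and 40.1 FPKM in MMK-1. All MMK-1 libraries were lower than the lowest Control library, and they spread more widely than the Control libraries. Its log2 fold change was -0.56 (SE 0.0482, limma adjusted p = 1.0e-05), or 1.49-fold lower.

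Both transport proteins had similar levels in Control. The ratio of Slc27a2 to Slc27a4, which does not depend on the scaling between libraries, was 0.939 ± 0.0104 (SD, n = 3) in Control and 0.765 ± 0.0341 in MMK-1. The log2 ratio differed by -0.30 (SE 0.0378), with no overlap between the groups and an exact permutation p of 0.1, which is also the adjusted p over the 5 pairs compared within families. Of the 10 uptake and transport genes listed, 7 were tested, of which 4 were called lower and 3 higher, or 4 and 1 after upper-quartile scaling. One of the lower genes was Cd36, which passed the filter through its Control libraries alone, and without it 3 of 6 were lower. Over all genes tested, 24.7% were lower and 48.5% higher, or 37.1% and 34.7% after scaling. The fourth gene that fell was Scarb1, the HDL receptor, from 115 ± 0.934 to 69.6 ± 4.54 FPKM (log2 fold change -0.72). Mfsd2a, a transporter of lysophosphatidylcholine that carries long-chain fatty acids, rose from 4.86 ± 0.260 to 10.3 ± 0.427 FPKM under either scaling. Got2, a mitochondrial aminotransferase also described as a fatty acid-binding protein of the plasma membrane, and Slc27a1 were called higher as deposited (log2 fold changes 0.25 and 0.16) and were not called after upper-quartile scaling (0.09 and 0.02). The call of Slc27a1 was also lost without Control replicate 2 (0.15) or 3 (0.13).

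**Figure D2:**
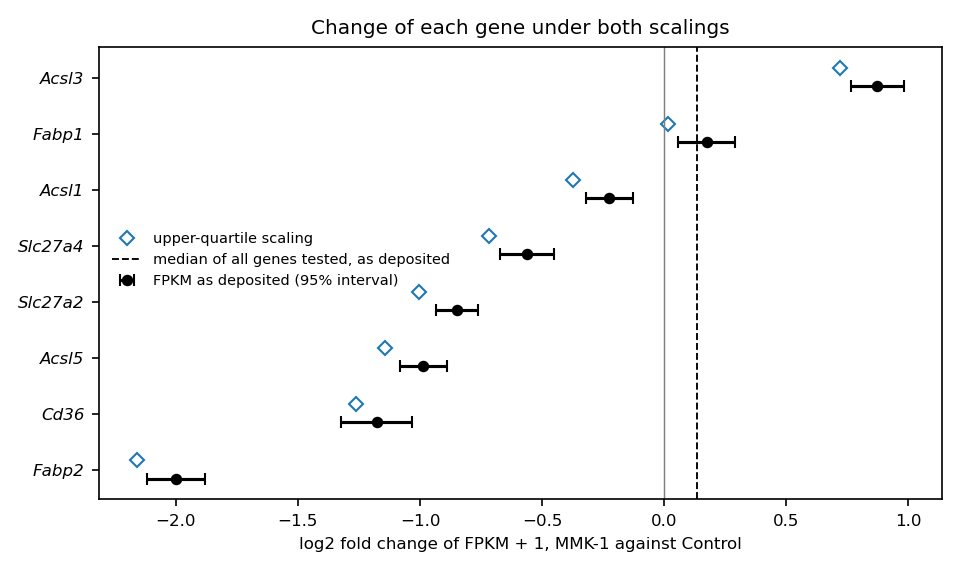
Log2 fold change of FPKM + 1, MMK-1 against Control, for each of the 8 genes with its 95% interval from limma (black) and after upper-quartile scaling (open diamonds); the dashed line marks the median of all genes tested, 0.13. Acsl3 lies to the right of the line under the deposited scaling, Fabp1 moves from 0.17 to 0.01 with the scaling, and 6 genes lie below 0 under both.

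Of the 2 binding proteins, Fabp2 fell and Fabp1 did not. Fabp2, the intestinal fatty acid-binding protein, and Fabp1, the liver type that enterocytes also make in large amounts and that binds more bulky ligands, were the most abundant of the 8 genes in Control. The 250 bases before their RefSeq start sites (GRCm38.p6, the patch release of mm10, both on the plus strand) are shown because the levels of these relatives drew apart, at chr6:71199629-71199878 for Fabp1 and chr3:122894822-122895071 for Fabp2, with matches to the motifs named below in capitals.
Fabp1: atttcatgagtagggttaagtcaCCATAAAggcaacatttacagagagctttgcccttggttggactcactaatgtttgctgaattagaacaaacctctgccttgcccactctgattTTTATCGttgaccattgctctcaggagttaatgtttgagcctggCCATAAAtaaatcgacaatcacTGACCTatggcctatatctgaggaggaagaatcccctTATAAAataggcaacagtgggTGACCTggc
Fabp2: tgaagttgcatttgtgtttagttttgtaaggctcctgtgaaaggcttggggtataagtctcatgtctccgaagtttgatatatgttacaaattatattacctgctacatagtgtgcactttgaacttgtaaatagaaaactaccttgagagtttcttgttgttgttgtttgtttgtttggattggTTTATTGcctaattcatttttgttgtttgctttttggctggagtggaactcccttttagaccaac
Capitals mark 3 kinds of match, read on both strands. TTTATNG, the letters bound by the intestinal factor CDX2, occurred 3 times before Fabp1, of which 2 on the opposite strand, where they read CCATAAA, and 1 time before Fabp2, and stood in 9.81% of all 32851 promoter windows of this length and in 6.28% of those of the genes tested. AGGTCA, the half-site of nuclear receptors such as PPARs and RXRs, occurred 2 times before Fabp1, both on the opposite strand and read there as TGACCT, and in 14.0% of all windows and 11.1% of those of the genes tested. TATAAA, the TATA box, began 30 bases before the start of Fabp1 and stood in 12.4% and 6.61% of these windows. No matches overlapped in these windows. Windows of all 8 genes were found, with 2 for Acsl1, and AGGTCA also occurred in the windows of Slc27a2 and Cd36. The windows of Cd36 and Acsl5, and that of Acsl1 at chr8:46490716-46490965, lie inside the gene spans given in this text, not before them. The other motifs searched, AGGTCA repeated after any 1 base (0.0335% of all windows and 0.0367% of those of the genes tested), AGATAA of the GATA factors (9.99% and 5.98%), CTTTGAT of TCF and LEF factors (3.21% and 2.38%) and CAAAGTCCA of HNF4 factors (0.384% and 0.468%), had no match in the windows of these genes. A match describes letters only.

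Fabp2 (NCBI gene 14079, chr3:122895072-122899506) was at 1399, 1411 and 1473 FPKM in Control and at 341, 346 and 384 FPKM in MMK-1. The highest MMK-1 library lay far beneath the lowest Control library. The level was 4.0-fold lower with MMK-1, a log2 fold change of -2.0 (SE 0.0521, limma adjusted p = 1.1e-08), which put Fabp2 at the 0.616 percentile of change among all genes tested. It ranked 37th by mean FPKM in Control and 166th in MMK-1.

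Fabp1 (NCBI gene 14080, chr6:71199879-71205034) was at 2161, 2238 and 2257 FPKM in Control and at 2516, 2342 and 2659 FPKM in MMK-1. The MMK-1 libraries lay above the Control libraries with a narrow gap, and spread more widely. The mean was 1.13-fold higher with MMK-1, a log2 fold change of 0.17 (SE 0.0518, limma adjusted p = 0.0140) as deposited, which upper-quartile scaling reduced to 0.01 with an adjusted p of 0.778. Without the filter on low genes the change was the same but the adjusted p was 0.107. Relative to the median of all genes tested, Fabp1 was 0.04 higher on the log2 scale. Its fragments, 41436 to 43191 per Control library and 43089 to 50566 per MMK-1 library, overlapped between the groups before division by library totals.

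The ratio of Fabp2 to Fabp1 was 0.644 ± 0.0117 (SD, n = 3) in Control and 0.143 ± 0.00639 in MMK-1, a difference of -2.18 (SE 0.0407) on the log2 scale, with no overlap and an exact permutation p of 0.1. Together both genes made up nearly all FPKM of the 8 Fabp genes in the table. Fabp1 held 60.5% ± 0.435 of that sum in Control and 86.7% ± 0.498 in MMK-1. Fabp2 held 38.9% ± 0.432 and 12.4% ± 0.484. The sum itself was 3667 ± 85.2 FPKM in Control and 2891 ± 180 FPKM in MMK-1.

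**Figure D3:**
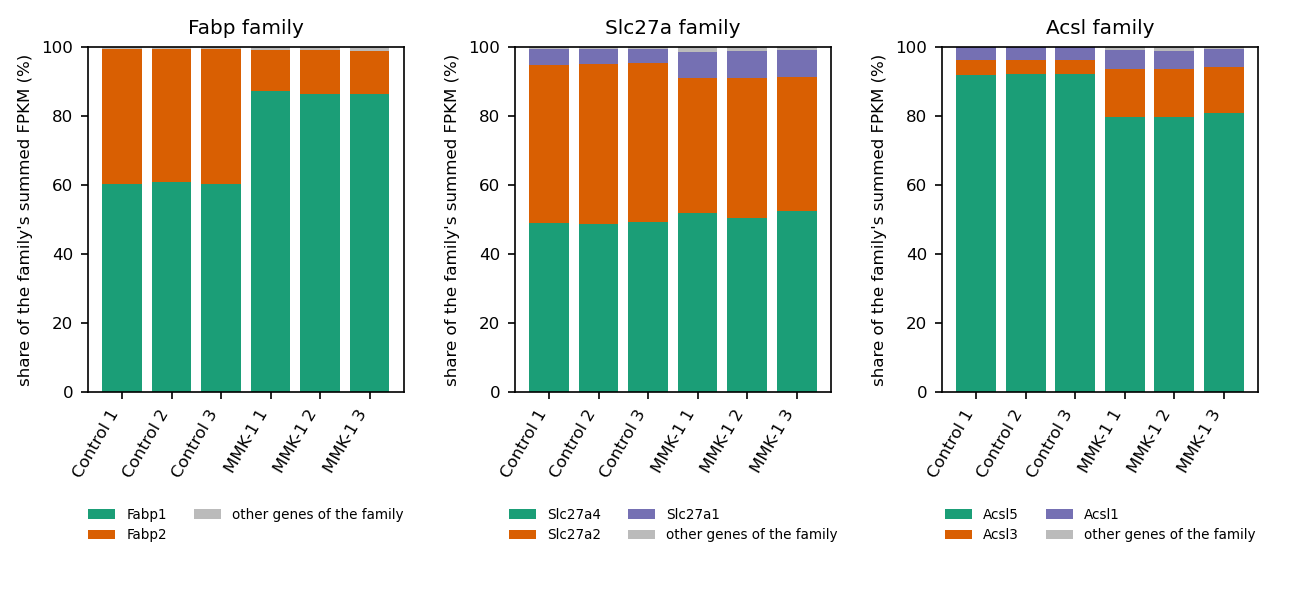
Share of each family's summed FPKM (%) taken by its genes in each of the 6 libraries, as stacked bars for the Fabp, Slc27a and Acsl families. The share of Fabp2 is near 38.9% in Control and 12.4% in MMK-1, that of Acsl5 near 92.1% and 80.2%, and the Slc27a bars differ least.

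Of the 17 binding protein genes listed, 14 are in the table and 9 were tested, of which 4 were called higher and 3 lower as deposited, and 1 higher and 3 lower after upper-quartile scaling. The gene called higher under both was Fabp5, the epidermal type, at 15.2 ± 0.147 FPKM in Control and 27.5 ± 2.33 FPKM in MMK-1 (log2 fold change 0.81). Dbi, the acyl-CoA-binding protein, was at 802 ± 19.0 and 924 ± 11.4 FPKM, and this difference was called as deposited (0.21) but not after scaling (0.05). Acbd3, a Golgi protein with an acyl-CoA-binding domain, behaved likewise, with 0.24 and 0.09. Fabp6, the ileal bile acid-binding protein, fell from 4.96 ± 0.188 to 0.915 ± 0.420 FPKM, on 91 to 98 fragments per Control library and 10 to 26 per MMK-1 library. Its MMK-1 mean lay under the filter of 1 FPKM, so its lower level was in part fixed by the filter. Scp2, a peroxisomal sterol carrier and thiolase, fell from 166 ± 0.926 to 90.4 ± 11.2 FPKM. The median log2 fold change of the tested genes was 0.06 as deposited and -0.08 after scaling, beside 0.13 and -0.0047 for all genes tested. Of all genes tested, 48.5% were called higher and 24.7% lower, or 34.7% and 37.1% after scaling.

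Of the 3 acyl-CoA synthetases, Acsl5 and Acsl1 fell and Acsl3 rose. The 250 bases before the RefSeq starts of Acsl3 and Acsl5, the pair with opposite changes, at chr1:78657575-78657824 for Acsl3 and chr19:55253119-55253368 for Acsl5 (both plus strand), are given in lower case because none of the 7 motifs matched there. The Acsl5 window lies inside the gene span given below, which begins at 55251861, and not before it.
Acsl3: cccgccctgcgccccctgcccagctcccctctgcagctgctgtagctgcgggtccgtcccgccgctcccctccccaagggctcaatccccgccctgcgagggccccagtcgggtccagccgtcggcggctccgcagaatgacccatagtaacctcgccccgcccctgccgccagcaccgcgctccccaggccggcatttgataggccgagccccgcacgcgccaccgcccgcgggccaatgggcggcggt
Acsl5: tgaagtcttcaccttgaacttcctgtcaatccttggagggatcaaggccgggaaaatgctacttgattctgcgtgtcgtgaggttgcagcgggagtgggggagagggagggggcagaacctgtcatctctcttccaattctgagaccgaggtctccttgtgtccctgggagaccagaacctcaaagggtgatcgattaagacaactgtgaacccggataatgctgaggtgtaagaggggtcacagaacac
The window of Acsl3 was 75.6% G and C and that of Acsl5 52.8%, where the median was 52.4% over all windows and 59.6% over those of the genes tested.

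Acsl5, a synthetase of mitochondria and the endoplasmic reticulum and the main one of the enterocyte (NCBI gene 433256, chr19:55251861-55296628), was at 458, 457 and 453 FPKM in Control and at 223, 225 and 242 FPKM in MMK-1. The Control libraries were nearly equal, and all MMK-1 libraries lay far beneath them. The level was 1.98-fold lower with MMK-1, a log2 fold change of -0.99 (SE 0.0421, limma adjusted p = 1.7e-07), which fell just short of the fold threshold of 2. It passed that threshold without MMK-1 replicate 3 (-1.02) and after upper-quartile scaling (-1.15), as did Slc27a2 after that scaling (-1.003).

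Acsl3, a synthetase of the endoplasmic reticulum and of forming lipid droplets (NCBI gene 74205, chr1:78657825-78707743), was at 22.2, 20.5 and 20.2 FPKM in Control and at 38.3, 39.5 and 39.8 FPKM in MMK-1. Every MMK-1 library was above every Control library. The level was 1.87-fold higher, a log2 fold change of 0.87 (SE 0.0473, limma adjusted p = 6.6e-07) that stayed at 0.72 after upper-quartile scaling. Acsl1, a synthetase with a broad choice of long-chain fatty acids (NCBI gene 14081, chr8:46471037-46536051), was at 18.4, 17.5 and 17.5 FPKM in Control and at 15.4, 14.8 and 15.0 FPKM in MMK-1. The groups did not overlap, but the gap was small, at 1.18-fold lower (log2 fold change -0.23, SE 0.0423, limma adjusted p = 0.0012). After upper-quartile scaling the log2 fold change was -0.38 (limma adjusted p = 6.3e-05).

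Acsl5 held 92.1% ± 0.266 of the summed FPKM of the 5 Acsl genes in Control and 80.2% ± 0.728 in MMK-1. The share of Acsl3 was 4.23% ± 0.187 in Control and 13.7% ± 0.338 in MMK-1, while the sum of the family was 495 ± 4.38 and 287 ± 10.4 FPKM. The ratio of Acsl3 to Acsl5 was 0.0459 ± 0.00217 (SD, n = 3) in Control and 0.171 ± 0.00567 in MMK-1, a difference of 1.89 (SE 0.0477) on the log2 scale. For Acsl1 to Acsl5 the log2 ratio differed by 0.75 (SE 0.0495), and for Acsl1 to Acsl3 by -1.14 (SE 0.0369). None of these 3 ratios overlapped between the groups, and each gave an exact permutation p of 0.1.

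Of the 17 activation genes listed, 13 are in the table and 9 were tested, of which 5 were called higher and 3 lower, or 4 and 3 after upper-quartile scaling. Acsf2, a mitochondrial member of the acyl-CoA synthetase family, rose from 4.70 ± 0.392 to 19.4 ± 1.14 FPKM, a log2 fold change of 1.84. Acsl4, which prefers arachidonic acid, was at 0.539 ± 0.0514 FPKM in Control and 2.43 ± 0.564 FPKM in MMK-1, on 100 to 121 and 367 to 562 fragments per library, and passed the filter through its MMK-1 libraries alone. Acsf3, a mitochondrial malonyl-CoA synthetase, fell from 15.0 ± 0.101 to 11.1 ± 0.625 FPKM. The median of the tested genes was 0.14 as deposited and 0.00018 after scaling, beside 0.13 and -0.0047 for all genes tested.

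**Figure D4:**
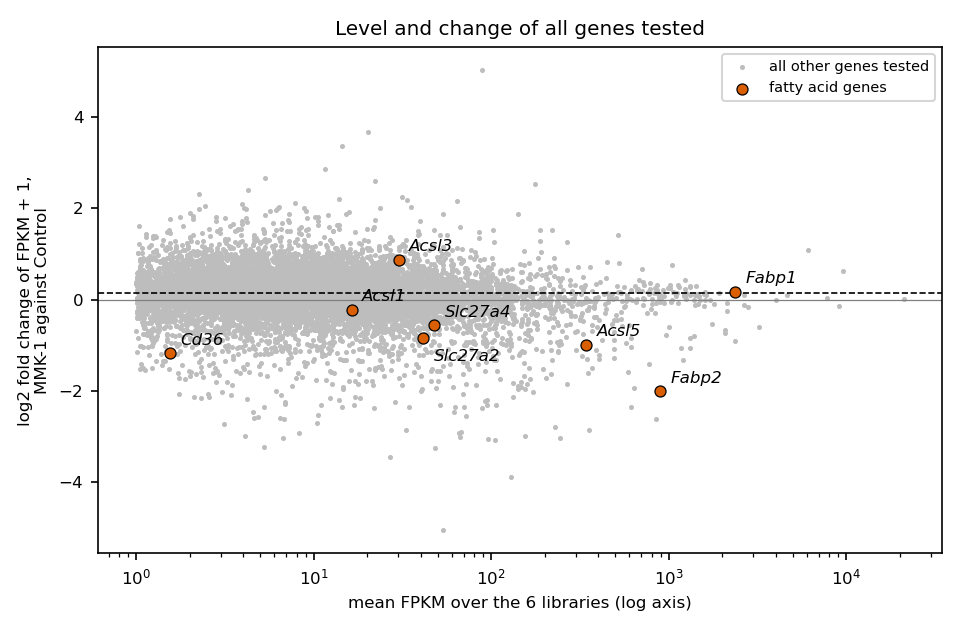
Mean FPKM over the 6 libraries (log axis) and log2 fold change of FPKM + 1, MMK-1 against Control, for the 10551 genes tested (grey), with the 8 fatty acid genes in orange and the median of all genes, 0.13, as a dashed line. Fabp2 at -2.0 and Acsl5 at -0.99 lie among highly expressed genes, and Cd36 lies near the left edge, at the filter of 1 FPKM.

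By level per length, the order in Control was Fabp1, Fabp2, Acsl5, Slc27a4, Slc27a2, Acsl3, Acsl1 and Cd36, and no neighbours in this order overlapped. In MMK-1 the order was Fabp1, Fabp2, Acsl5, Acsl3, Slc27a4, Slc27a2, Acsl1 and Cd36. There Acsl3, at 38.3 to 39.8 FPKM, could not be separated from Slc27a4, at 36.0 to 40.1 FPKM. All 8 genes together took 0.458% to 0.468% of the fragments in the Control libraries and 0.278% to 0.306% in the MMK-1 libraries.

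Genes with the most similar course over the 6 libraries were found by the distance between log2(FPKM + 1) values after subtracting each gene's mean. For Fabp2 these were Aoc1, the diamine oxidase, Chp2, a calcineurin-like calcium-binding protein, and Ephx2, the soluble hydrolase of fatty acid epoxides, at distances of 0.0910, 0.0964 and 0.0987 and log2 fold changes of -1.95, -2.0 and -2.06. For Acsl3 they were Ghrl, which encodes ghrelin, Ube2c, a ubiquitin-conjugating enzyme of mitosis, and Zfp692, a zinc finger protein, at distances of 0.0591, 0.0675 and 0.0692 and log2 fold changes of 0.87, 0.86 and 0.87.

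Genes next to activation changed in both directions. Of 9 acyl-CoA thioesterases tested, which cleave acyl-CoA back to the free acid, 4 were called higher and 4 lower, or 3 and 5 after upper-quartile scaling. Among all genes tested, 48.5% were called higher and 24.7% lower, or 34.7% and 37.1% after scaling. The share of thioesterases called higher was thus near that of the whole table. Acot1 rose from 42.9 ± 1.05 to 94.1 ± 3.03 FPKM and Acot2 from 6.23 ± 0.155 to 12.8 ± 0.528 FPKM. These are near-identical paralogs, how reads shared by them were counted is not given in the sources used here, and their separate values are uncertain. Acot7 also rose (log2 fold change 0.60), and Acot9, Acot13 and Them4 fell, by 0.37, 0.31 and 0.25 on the log2 scale as deposited and by 0.52, 0.47 and 0.39 after scaling.

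For triglyceride re-esterification, 7 of 13 genes tested were called lower and 3 higher, or 10 and 3 after upper-quartile scaling, with a median of -0.20 as deposited and -0.36 after scaling. The whole table had 24.7% lower and 48.5% higher, or 37.1% and 34.7% after scaling. Mogat2, which acylates the monoacylglycerol absorbed with the fatty acids, fell from 222 ± 1.20 to 83.7 ± 3.96 FPKM, a log2 fold change of -1.40 (SE 0.0429, limma adjusted p = 2.9e-08). Gpat3, a glycerol-phosphate acyltransferase, and Lpin3, a phosphatidate phosphatase, fell as well, by 0.96 and 0.84 on the log2 scale. Lpin1, of the same phosphatase family, rose from 1.34 ± 0.0935 to 4.48 ± 0.0521 FPKM. Agpat5 and Gpat4, acyltransferases of the glycerol-phosphate route, rose with log2 fold changes of 0.53 and 0.41, or 0.38 and 0.26 after scaling.

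Among 10 lipid droplet and lipolysis genes tested, 4 were called higher and 4 lower, or 2 and 5 after upper-quartile scaling. For all genes tested the shares were 48.5% and 24.7%, or 34.7% and 37.1% after scaling. Lipe, the hormone-sensitive lipase, fell from 15.4 ± 0.389 to 7.16 ± 0.230 FPKM, and Cideb, which acts in lipoprotein lipidation, from 148 ± 6.90 to 82.4 ± 5.60 FPKM. Pnpla3, a lipid droplet hydrolase, fell by 0.55 on the log2 scale. G0s2, an inhibitor of the triglyceride lipase ATGL, was at 0.232 ± 0.186 FPKM on 3 to 14 fragments per Control library and at 3.29 ± 0.0907 FPKM on 96 to 106 fragments per MMK-1 library, which alone carried it past the filter. Hilpda, another ATGL inhibitor, rose (0.76), while Cidec, a droplet fusion protein, was called higher as deposited (0.23) and not after scaling (0.08).

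Of 13 genes of fatty acid synthesis and desaturation tested, 12 were called higher and 0 lower as deposited (median 0.45), and 9 higher and 1 lower after upper-quartile scaling (median 0.29). Across all genes tested the shares were 48.5% and 24.7%, and 34.7% and 37.1% after scaling. Fads3, a member of the desaturase family, rose from 1.42 ± 0.0845 to 5.97 ± 0.416 FPKM. Me1, which supplies NADPH, rose from 22.2 ± 0.850 to 48.2 ± 2.10 FPKM, and Acly, which makes cytosolic acetyl-CoA from citrate, from 23.7 ± 0.480 to 48.8 ± 1.53 FPKM. The gene called lower after scaling alone was Elovl1, named here after its values were seen, with log2 fold changes of 0.04 as deposited and -0.12 after scaling. Of 6 fatty acid receptors, Ffar4, which senses long-chain fatty acids, was the 1 gene tested, and it rose from 1.14 ± 0.345 to 3.37 ± 0.426 FPKM.

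Of 14 transcription factors and coactivators of lipid metabolism, 8 were called lower and 3 higher, or 10 and 1 after upper-quartile scaling and 6 and 1 without Control replicate 3. All genes tested gave 24.7% lower and 48.5% higher, or 37.1% and 34.7% after scaling. Ppara, a nuclear receptor for fatty acids, fell from 10.05 ± 0.190 to 5.45 ± 0.383 FPKM, a log2 fold change of -0.78 (SE 0.0546, limma adjusted p = 3.0e-06). Creb3l3, a membrane-bound factor of the endoplasmic reticulum, and Nr1h3, the oxysterol receptor LXR alpha, fell by 0.64 and 0.54 on the log2 scale. Srebf2, the factor of sterol synthesis, rose by 0.28 as deposited and 0.13 after scaling. The coactivators Ppargc1a and Ppargc1b were called higher as deposited (0.26 and 0.17) and not after scaling (0.15 and 0.05). Their calls were also lost without Control replicate 1 or 3 or MMK-1 replicate 2, and that of Ppargc1a without MMK-1 replicate 1, with changes of 0.14 to 0.25.

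**Figure D5:**
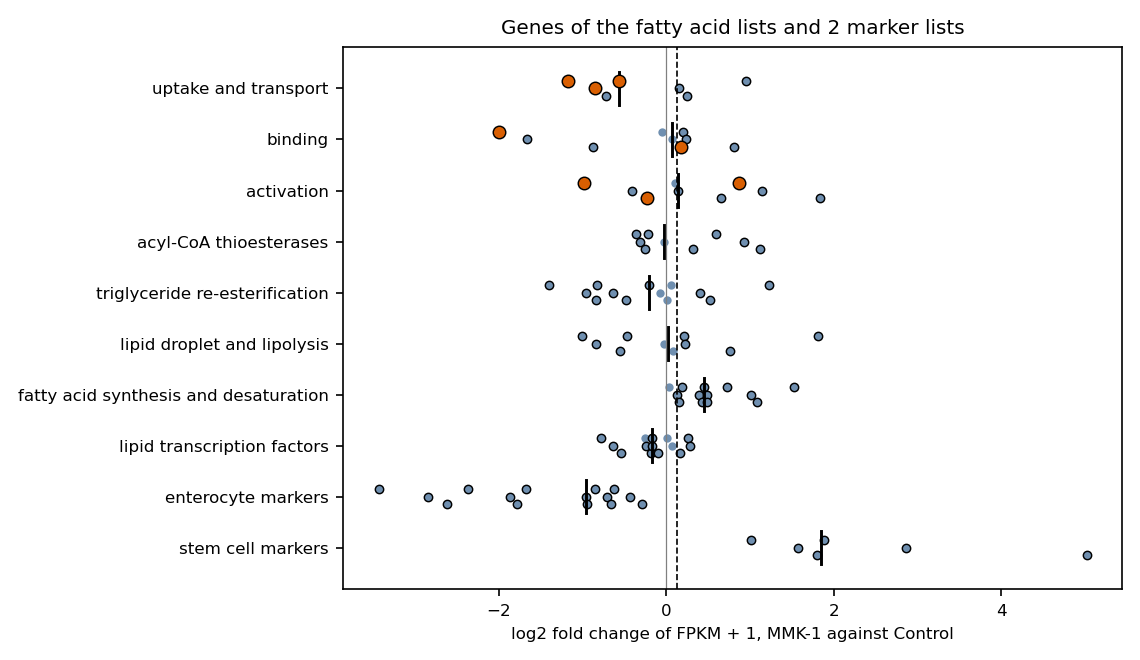
Log2 fold change of FPKM + 1, MMK-1 against Control, for each gene tested in 8 fatty acid lists and in the enterocyte and stem cell marker lists, with the 8 fatty acid genes in large orange points, black outlines for an adjusted p of at most 0.05, short bars for list medians and a dashed line for the median of all genes, 0.13. The enterocyte markers lie below 0, the stem cell markers above it, and the lists of uptake, binding and activation hold genes on both sides.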

How the data were processed

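The authors deposited FPKM values, that is fragments divided by gene length and library total, for 21397 genes in 3 Control and 3 MMK-1 libraries, read as 150-bp paired ends. The submitters' processing notes name HISAT2, HTSeq, R 3.2.0, DESeq2 and the build mm10, with no roles, and no scaling between libraries is stated. The 8 genes and the gene lists were chosen with earlier results of these data known.

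Since FPKM are not counts, limma 3.58.1 (limma-trend, R 4.3.3) was fitted to log2(FPKM + 1), that is with a pseudocount of 1, for the 10551 genes averaging 1 FPKM or more, and p-values were adjusted over all of them. A fold change on this scale understates the change of low genes. FPKM steps were whole multiples, within a relative 2e-06 and at most 0.003 fragments, for all 20676 genes above 0, which gave the fragments of each gene and the library totals; rebuilt and deposited FPKM differed by a relative 1.4e-06 at most. Fragments were used for limma-voom as an alternative. Fragment counts cover counting error only.

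Ratios of family members were tested by exact two-sided permutation over libraries, and 5 pairs were adjusted by Benjamini-Hochberg. Named were all 8 genes, the called genes with the 3 largest changes in each direction of each fatty acid list, the called marker with the largest rise and fall in each cell type list, markers at 0, genes said to be chosen after their values were seen, and the nearest 3 genes to Fabp2 and Acsl3. Gene coordinates are on mm10, and promoter windows are those of RefSeq on GRCm38.p6. Same-numbered libraries did not deviate together (correlations 0.0253, -0.0400 and 0.0279) and the study's methods state no pairing, so the design has no block. Such correlations cannot exclude a shared source. Alternatives covered scaling, unit, pseudocount, filter, replicate block, test, thresholds and left-out replicates. The rest used scipy 1.17.1, pandas 2.3.3, numpy 2.4.6 and matplotlib 3.10.9 under Python 3.11.15, and the recovery of fragments and the limma-trend fit were tested on simulated data.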

Additional observations from a re-analysis of the deposited data

How the results depend on the processing

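Apart from Elovl1, which was not called as deposited (0.04) and lay at -0.12 after upper-quartile and -0.12 after median-of-ratios scaling, no other gene followed over the alternatives changed direction. Epcam was not followed over them. The median of all genes tested went from 0.13 to -0.0047 after upper-quartile scaling and that of the binding genes from 0.06 to -0.08, and the whole-table calls from 48.5% higher and 24.7% lower to 34.7% and 37.1%. The 8 genes gave 7 to 8 calls at the adjusted p across scalings, units, pseudocounts, filters, the block and limma-voom, and 8 calls whichever replicate was left out. For Fabp1 the call was lost, with log2 fold changes of 0.015 after upper-quartile (adjusted p = 0.778 in limma) and 0.015 after median-of-ratios scaling (0.772), 0.17 without the filter (0.107) and 0.17 with a pseudocount of 0.1 and no filter (0.141). Its change was 0.13 to 0.22 over the left-out replicates. The 2 genes past a fold change of 2, both lower, became 4 after upper-quartile scaling, 4 after median-of-ratios scaling, 1 with a filter of 5 FPKM, where Cd36 was not tested, 5 at a fold of 1.5, of which 4 were lower and Acsl3 was higher, and 2 to 3 over the left-out replicates. The 7 binding genes called became 4 after upper-quartile and 4 after median-of-ratios scaling. The 11 lipid transcription factors called became 7 without Control replicate 3 and ranged from 7 to 11 over the left-out replicates. With the replicate block all 8 genes kept their call, as for Fabp1 (log2 fold change 0.17, adjusted p = 0.0104) and Fabp2 (-2.0, 9.5e-08), and no count moved by over 1.5 times. Same-numbered libraries did not deviate together, which cannot exclude a shared source. For Cd36 the log2 fold change was -1.14 to -2.17, the latter by limma-voom. The counts called in either direction stayed within 1.5 times in the other fatty acid lists. By direction, upper-quartile scaling took the genes called higher from 3 to 1 for uptake, 4 to 1 for binding, 4 to 2 for lipid droplets and 3 to 1 for transcription factors.

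With 3 libraries per group the precision rests on few samples, and MMK-1 replicate 3 stood apart. Fabp1, Got2, Slc27a1, Dbi, Acbd3 and Cidec, called higher as deposited, were not called after upper-quartile scaling. Cd36 and Fabp6 rest on few fragments in MMK-1. Only RNA was measured.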

Other observations

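Besides the genes tested, 2 genes of the fatty acid lists under the filter of 1 FPKM are given here, chosen after their values were seen. Acss3, a mitochondrial short-chain acyl-CoA synthetase, was at 0.0758 ± 0.0256 FPKM in Control and 1.32 ± 0.278 FPKM in MMK-1, on 10 to 20 and 219 to 322 fragments per library. Acot12, a cytosolic acetyl-CoA hydrolase, was at 1.05 ± 0.0820 and 0.0240 ± 0.00489 FPKM, on 110 to 128 and 2 to 3 fragments per library. Neither was tested in the fit.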
